A study of Mus musculus with 3 samples.

Results

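The 10 genes described here, Hk1, Hk2, Pfkl, Aldoa, Tpi1, Pgk1, Pgam1, Eno1, Pkm and Ldha, encode glycolytic enzymes and were taken by name from a table of 48709 mouse genes. Each name matched 1 row, and all 10 had counts in every library. The RNA came from sorted mouse lung cells, in 3 libraries that form 1 wild-type (WT) group, so the design holds no comparison between conditions. The mice carried 2 transgenes, a tamoxifen-inducible Cre recombinase (CreERT2) driven by smooth muscle actin and the red fluorescent protein tdTomato, and all of them received tamoxifen at 75 mg/kg on 10 days at 8 weeks of age. Lungs were taken 2 months later, and the cells were then sorted (the sources used here do not name the marker or gate). Nothing in the labels says that the libraries came from separate mice, so the spread between them may be technical.

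Glycolysis breaks glucose down to pyruvate in the cytosol. Hexokinase traps glucose as a phosphate ester, phosphofructokinase commits it to the pathway, and aldolase and triosephosphate isomerase turn the sugar into a pair of interchangeable triose phosphates. The later enzymes, from phosphoglycerate kinase to pyruvate kinase, recover ATP, and lactate dehydrogenase reduces pyruvate to lactate, which regenerates the NAD+ that the pathway needs. Most steps have several isoenzyme genes with different tissue patterns. Many of the genes are known targets of hypoxia-inducible factor (HIF), the transcription factor of the low-oxygen response, and pulmonary vascular smooth muscle is known to raise its glycolysis in pulmonary hypertension.

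The deposited values were whole-number read counts, totalling 18896263 in WT library 1, 18355813 in library 2 and 16877297 in library 3. A gene at 0 may thus have up to 3 counts, which equalled 0.159, 0.163 and 0.178 counts per 1000000 counts (CPM) in these libraries. Markers of smooth muscle, the labelled cell type, were low beside those of other cells. The 10 contractile genes fixed for the check (Acta2, Myh11, Tagln and others) summed to 141, 188 and 156 CPM, 9 of them reached 1 CPM on average and 6 reached 10 CPM, and Cnn1 had no count in library 1. Markers of T, B and natural killer cells summed to 1629, 1722 and 1916 CPM, with 12 of 12 above 10 CPM. Fibroblast markers summed to 845, 1807 and 1805 CPM, endothelial markers to 788, 452 and 579 CPM, and macrophage, monocyte and neutrophil markers to 901, 288 and 376 CPM. Alveolar epithelial markers summed to 2205, 477 and 576 CPM, airway markers, Scgb1a1 above all, to 13768, 2800 and 7912 CPM, and red cell markers to 729, 3336 and 1107 CPM. No marker on these lists was at 0 in all 3 libraries. The levels below are therefore those of the sorted mixture, in which fewer cells of a type and less RNA per cell cannot be told apart.

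Sequences that bear on the reading of the counts, and on the regulators described further on, are shown first. The 250 bases before the start of Pgk1 (chrX:106186850-106187099, plus strand) are given as an example, as are those before a start of Ldha (chr7:46845554-46845803, plus strand). The Ldha stretch lies inside the annotated span of the gene but in none of its exons. Each held several matches to ACGTG, a core of the HIF binding motif, and overlapped no exon of its gene. The window of Hk2, with 2 matches and no exon, would also have qualified and is not printed. Another window of Ldha held no match. The printed stretches come from RefSeq, build GRCm38.p6, and capitals mark ACGTG on either strand.
Pgk1: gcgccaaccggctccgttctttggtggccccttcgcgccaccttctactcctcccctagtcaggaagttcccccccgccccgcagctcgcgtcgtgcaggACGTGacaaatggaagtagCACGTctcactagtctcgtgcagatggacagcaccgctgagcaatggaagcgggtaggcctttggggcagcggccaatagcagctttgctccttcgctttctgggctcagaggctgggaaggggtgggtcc
Ldha: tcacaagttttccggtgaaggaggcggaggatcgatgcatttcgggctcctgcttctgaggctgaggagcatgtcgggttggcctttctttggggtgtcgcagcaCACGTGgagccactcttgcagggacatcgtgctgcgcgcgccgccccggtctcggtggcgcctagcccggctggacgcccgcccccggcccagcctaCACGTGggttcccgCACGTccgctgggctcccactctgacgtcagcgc

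The motif ACGTG, searched on both strands so that CACGTG counts on each of them, occurred in at least 1 upstream window of 6 of the 10 genes, namely Aldoa, Hk2, Ldha, Pgam1, Pgk1 and Pkm. The printed Pgk1 window held 2 matches and the printed Ldha window 5. Over all genes with such windows, 18.5% of 27025 had a match, and over nuclear protein-coding genes with at least 1 CPM 24.6% of 9944. A gene with several windows has more chances of a match, and the 10 genes had 17 windows. By window, 7 of these 17 had ACGTG, against 16.6% of 32851 windows of all genes. The related core GCGTG occurred upstream of 5 of the 10 genes, namely Eno1, Hk1, Ldha, Pfkl and Pgam1, against 30.9% of all genes and 49.0% of the protein-coding genes with at least 1 CPM. By window it was 7 of 17 against 28.2%. Some windows of Aldoa and of Eno1 overlap each other, so 1 match can count in more than 1 window. These are matches of letters, not binding sites, and Tpi1 had neither string in its window.

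Many copies of glycolytic genes exist in the mouse genome, most of them processed pseudogenes, which are reverse-transcribed copies of an mRNA. The stretch of the Pgk1 coding sequence from base 582 to base 641 is printed with its copies Pgk1-rs7 and Gm5537 because these 3 genes cannot be told apart within it. The sequences are those of GENCODE M21 on GRCm38, at chrX:106197902-106197961 (plus strand, coding exon), chr12:10899601-10899660 (minus strand, pseudogene) and chr3:58103607-58103666 (minus strand, pseudogene), and positions are counted from the first base of the start codon of the longest coding transcript.
Pgk1: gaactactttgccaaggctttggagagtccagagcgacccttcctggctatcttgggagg
Pgk1-rs7: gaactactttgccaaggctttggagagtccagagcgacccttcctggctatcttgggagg
Gm5537: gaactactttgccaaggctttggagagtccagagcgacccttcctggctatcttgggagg

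A stretch of Ldha and its pseudogene Ldha-ps2 is given as the contrast, since here the copy carries bases that a read could tell apart. It was picked as the stretch of 60 bases, aligned without gaps, with the most differences. Over all 993 aligned coding bases there were 51. Ldha is shown from coding base 446 to base 505 (chr7:46850292-46850351, plus strand, coding exon) and Ldha-ps2 at chr4:119335029-119335088 (minus strand), with the 8 differing bases in capitals.
Ldha: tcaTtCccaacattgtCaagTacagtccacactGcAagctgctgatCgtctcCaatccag
Ldha-ps2: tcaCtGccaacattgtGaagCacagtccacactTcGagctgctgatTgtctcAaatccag
With the base of Ldha first, these differences were T449C, C451G, C462G, T466C, G479T, A481G, C492T and C498A.

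Together the 10 genes took 755, 733 and 698 CPM in libraries 1, 2 and 3, or 0.0755%, 0.0733% and 0.0698% of all counts. Of the 10, 9 exceeded 10 CPM on average and 4, Eno1, Pkm, Aldoa and Ldha, exceeded 100 CPM. Levels were divided by the length of the union of each gene's exons before genes were compared with each other. The median over the 10 genes was then 15.8 ± 0.603 CPM per kilobase (SD, n = 3), with 16.5, 15.7 and 15.3 in the 3 libraries, against 3.54 ± 0.215 over the 13057 nuclear protein-coding genes with at least 1 CPM. Over the 6 genes that shared under 10% of all their 50-base words with other genes the median was 7.38, and over the 4 that shared under 10% of those of their longest coding transcript 5.79. The SD of the median was 1.53 with TMM-scaled sizes.

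**Figure D1:**
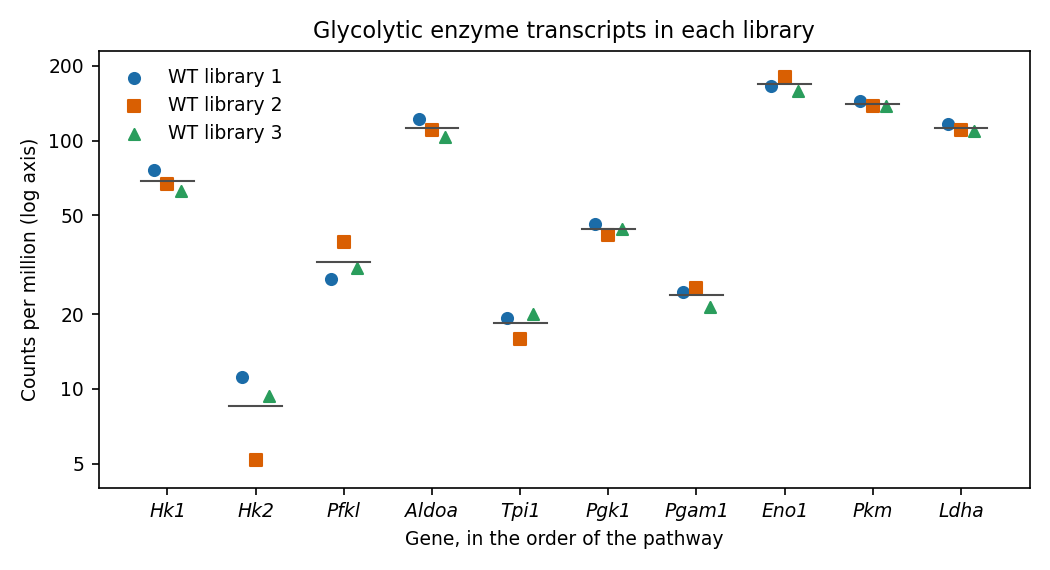
Counts per 1000000 (CPM) of the 10 glycolytic genes in the order of the pathway (log axis), with 1 symbol per WT library and a bar at the mean of the 3. Eno1, Pkm, Aldoa and Ldha lie above 100 CPM in all 3 libraries, and Hk2, from 5.18 to 11.2 CPM, has the widest relative spread.

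The hexokinases open the pathway. Hk1 (chr10:62268855-62379908), the form that most tissues carry, had 1437, 1232 and 1055 counts, which is 76.0, 67.1 and 62.5 CPM. Its level was highest in library 1 and lowest in library 3, 1.22-fold apart. Hk2 (chr6:82725025-82774454), the inducible and insulin-responsive hexokinase of muscle and fat, had 211, 95 and 158 counts, or 11.2, 5.18 and 9.36 CPM. Library 2 was the low library, 2.16-fold below library 1. Hk3, a hexokinase known from leukocytes, had 56, 15 and 30 counts, and its libraries had the same order as those of Hk2. Per kilobase, Hk1 exceeded Hk2 by 2.54 ± 0.54 on the log2 scale, a ratio of 5.83, and Hk2 exceeded Hk3 by 1.58 ± 0.35. Hk1 made up 80.0% ± 6.59 of the summed hexokinase level, Hk2 14.0% ± 3.79 and Hk3 4.79%. The summed macrophage, monocyte and neutrophil markers and the summed endothelial, alveolar and airway markers were also highest in library 1 and lowest in library 2, and their part in the values of Hk2 and Hk3 was not tested. Here and below, not every marker followed the order of its sum. Itgam, Mrc1, Napsa and Kdr were among those with another order, and Lyz2 was the largest part of the macrophage, monocyte and neutrophil sum. Hkdc1, a hexokinase relative, had 26, 3 and 1 counts.

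Glucose phosphate isomerase, encoded by Gpi1, follows hexokinase. Gpi1 is not among the 10 genes and is given to close the gap in the pathway, with 128, 132 and 127 CPM. Phosphofructokinase is the committing step. Pfkl (chr10:77986947-78010083), named for its liver form, had 526, 715 and 520 counts, or 27.8, 39.0 and 30.8 CPM. Library 2 was the high library, 1.40-fold above library 1. Pfkp, the platelet form, had 91.7, 90.9 and 99.7 CPM. Per kilobase, Pfkl lay 0.54 below Pfkp on the log2 scale (mean log2 ratio of -0.54 ± 0.28), and it was the lower of them in all 3 libraries. Pfkp made up 54.3% ± 3.93 of the summed level of the step, Pfkl 37.5% ± 4.94 and the muscle form Pfkm 8.27%. With the length of the longest coding transcript in place of all exons, the share of Pfkl was 26.6% and that of Pfkp 69.5%. Pfkl exceeded Pfkm by 2.20 ± 0.56 on the log2 scale. Among the isoenzyme genes compared here, which leave out the enolase copy Eno1b, Pfkl was thus the only gene of the 10 exceeded by another gene of its own step, apart from Hk2, which Hk1 exceeded.

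Aldolase splits the sugar bisphosphate. Aldoa (chr7:126795234-126809108), the muscle and general form, had 2313, 2021 and 1747 counts, or 122, 110.1 and 103.5 CPM. Library 1 was highest and library 3 lowest, with 1.183-fold between them. Aldoc, known from brain, had 14, 8 and 21 counts, so that Aldoa exceeded it by 7.30 ± 0.76 on the log2 scale. Aldoa took 99.3% ± 0.422 of the summed level of the step. Tpi1 (chr6:124810586-124814296), triosephosphate isomerase, which interconverts the products of aldolase, had 366, 292 and 339 counts, or 19.4, 15.9 and 20.1 CPM. Library 2 was low and libraries 1 and 3 were close together, and the level per kilobase was 6.70 ± 0.812 CPM. Tpi1 has no other isoenzyme gene among those listed.

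Gapdh, glyceraldehyde phosphate dehydrogenase, links its upper and lower parts and is again not among the 10 genes. It had 105, 91.7 and 96.3 CPM, and 82.5% of the 50-base words of its longest coding transcript occurred in other genes. Pgk1 (chrX:106187100-106203699), phosphoglycerate kinase, which makes the first ATP, had 871, 762 and 747 counts, or 46.1, 41.5 and 44.3 CPM. The libraries lay within 1.11-fold of each other. Pgk2, the testis form, had no count in any library. Against 3 counts over the 3 libraries together, Pgk1 was at least 575-fold higher per kilobase. Pgam1 (chr19:41911871-41918664), the phosphoglycerate mutase of most tissues, had 464, 470 and 362 counts, or 24.6, 25.6 and 21.4 CPM. Library 3 was low. The muscle form Pgam2 had 40, 24 and 65 counts and was highest in library 3. Pgam1 exceeded it by 2.16 ± 0.89 on the log2 scale and took 83.1%, 89.2% and 70.2% of the step in libraries 1, 2 and 3.

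Enolase makes phosphoenolpyruvate. Eno1 (chr4:150236721-150248879), the general form, had 3144, 3322 and 2681 counts, or 166, 181 and 159 CPM. It was the most counted of the 10 genes in every library, with library 2 highest and library 3 lowest, 1.14-fold apart. The muscle form Eno3 had 141, 139 and 144 counts and the neuronal form Eno2 92, 45 and 29. Eno1 exceeded Eno3 by 2.79 ± 0.19 and Eno2 by 5.72 ± 0.74 on the log2 scale, and it took 85.5% ± 1.14 of the step as summed here. The sum leaves out Eno1b, a copy annotated as protein-coding that had 2314, 2515 and 1858 counts. Pkm (chr9:59656368-59679375), the pyruvate kinase gene whose alternative exons give the muscle and the proliferation-linked form, had 2730, 2523 and 2322 counts, or 144, 137.5 and 137.6 CPM. Libraries 2 and 3 were equal to within 1 CPM, and library 1 was 1.05-fold above the lowest. Counts per gene do not separate the alternative forms. Pklr, the liver and red cell gene, had 0, 6 and 0 counts, so that its ratio to Pkm (9.74 ± 1.62 on the log2 scale) rests on the added count in libraries 1 and 3.

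Lactate dehydrogenase is a tetramer of A and B subunits, of which A is known to favour lactate formation and B the reverse reaction. Ldha (chr7:46841475-46855627) had 2197, 2023 and 1850 counts, or 116, 110.2 and 109.6 CPM, within 1.06-fold. Ldhb had 507, 232 and 291 counts, or 26.8, 12.6 and 17.2 CPM, and was high in library 1. Ldha exceeded Ldhb by 1.56 ± 0.50 on the log2 scale, a ratio of 2.94, and took 66.7%, 80.5% and 74.8% of the step in libraries 1, 2 and 3. The share of Ldha was thus lowest in the library with the highest Ldhb, and Ldhb had the library order 1, 3, 2 of the macrophage, endothelial, alveolar and airway marker sums. Their part in it was not tested.

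**Figure D2:**
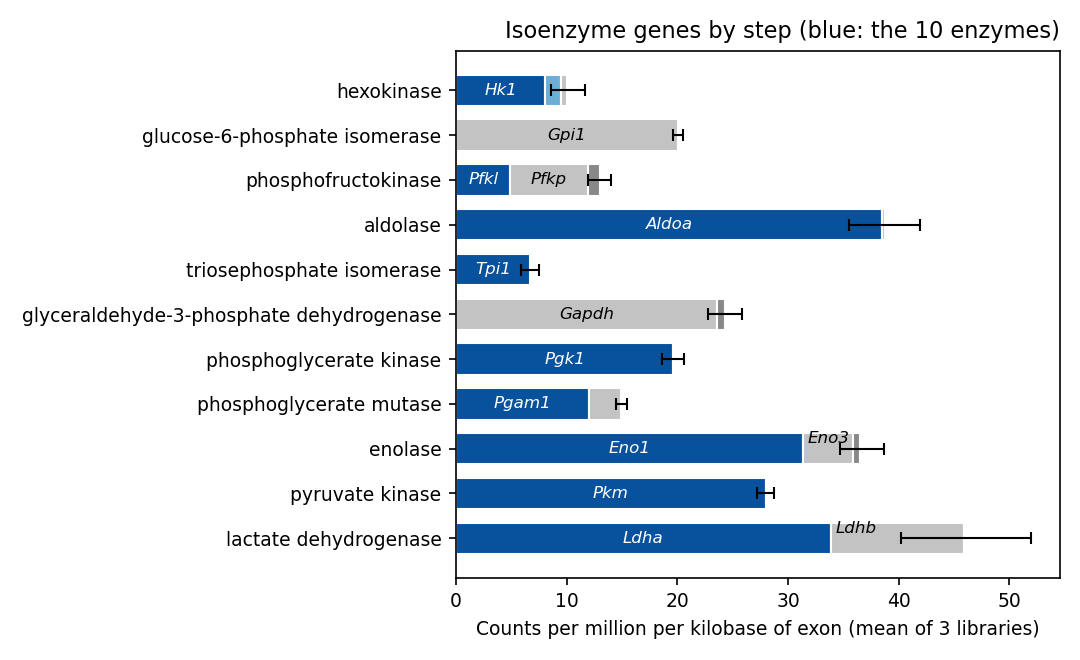
Summed CPM per kilobase of exon of the genes of each step, as means of 3 libraries, with the SD of the sum over the libraries as error bar. Blue segments are the 10 genes described (Hk2 in light blue) and grey segments the other genes of the step, without Eno1b or pseudogene copies. With this length the largest sum drawn is that of lactate dehydrogenase, 46.1 ± 5.87 (with the longest coding transcript, enolase). The smallest is that of triosephosphate isomerase, 6.70 ± 0.812.

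Across the steps, the sums per kilobase were 10.1 ± 1.54 for hexokinase, 20.02 ± 0.451 for Gpi1, 13.0 ± 1.02 for phosphofructokinase, 38.7 ± 3.21 for aldolase and 24.3 ± 1.55 for the Gapdh step. Per kilobase of exon the sum was highest at lactate dehydrogenase, aldolase and enolase (36.7 ± 1.97). The enolase sum leaves out Eno1b, whose counts would raise it, so the place of enolase among these is uncertain. With the longest coding transcript as length, enolase was highest (89.5), ahead of lactate dehydrogenase (76.4) and aldolase (72.6), and phosphofructokinase (32.7) lay above phosphoglycerate kinase (24.1), hexokinase (18.3) and phosphoglycerate mutase (16.3). Triosephosphate isomerase was lowest with either length, at 6.70 and 11.5. Ordered by level per kilobase of exon, the 10 genes ran Aldoa, Ldha, Eno1, Pkm, Pgk1, Pgam1, Hk1, Tpi1, Pfkl and Hk2, from 38.5 ± 3.29 to 1.44 ± 0.515 CPM per kilobase. Aldoa ranked 550 of 21839 nuclear protein-coding genes with a known length, within the top 2.52%, and Hk2 ranked 9613, within the top 44.0%. Neighbours in this order differed in the same direction in all 3 libraries except Ldha and Eno1 (log2 difference 0.11 ± 0.11, Ldha higher in 2 of 3) and Tpi1 and Pfkl (0.47 ± 0.42, Tpi1 higher in 2 of 3). With the length of the longest coding transcript, Eno1 led at 83.2 ± 5.55, ahead of Aldoa at 72.3 ± 6.19 and Ldha at 61.7 ± 2.03, and Hk1 moved above Pgam1.

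**Figure D3:**
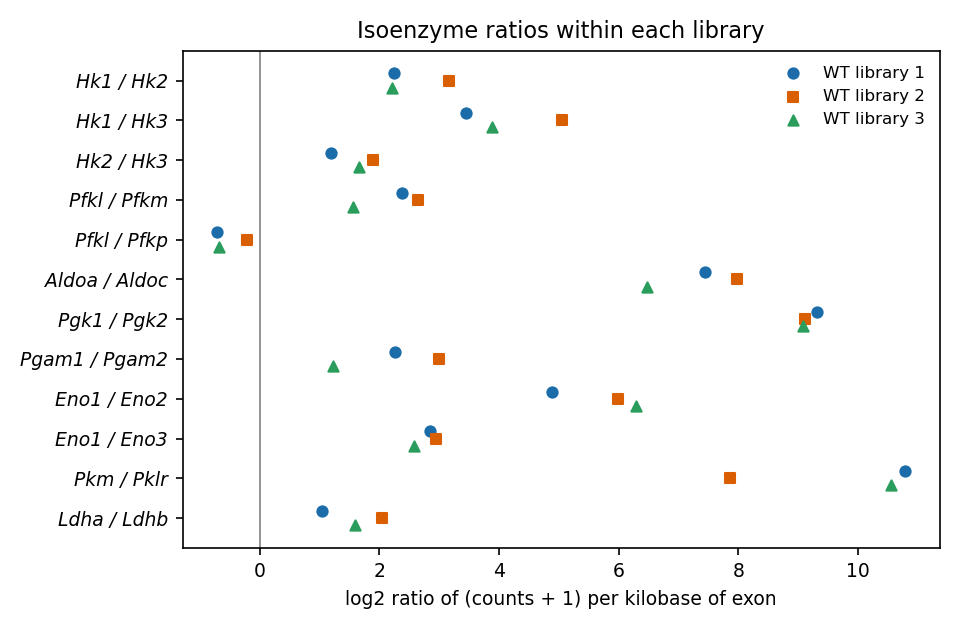
Log2 ratios of (counts + 1) per kilobase of exon for 12 pairs of genes of the same step, within each of the 3 WT libraries. Points right of 0 mean that the gene named first is higher; only Pfkl over Pfkp lies left of 0, in all 3 libraries.

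The sign of the ratio was common to the 3 libraries for all 12 isoenzyme pairs. The size depended on the length used. With the longest coding transcript, the log2 ratio of Eno1 to Eno3 was 4.04 in place of 2.79, that of Hk1 to Hk2 3.42 in place of 2.54, that of Pfkl to Pfkm 2.82 in place of 2.20 and that of Pfkl to Pfkp -1.39 in place of -0.54. Ratios to Hk3 (4.93 for Hk1), Aldoc (7.98), Eno2 (6.38), Pklr (10.6) and Ldhb (2.16) were also wider, except that of Hk2 to Hk3 (1.503). A ratio within a library does not depend on the scaling of that library. No p is given, since the smallest p that 3 libraries allow in an exact two-sided test by sign flips is 0.25.

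The spread between libraries was set against counting error. With library sizes scaled by the trimmed mean of M values (TMM), all 10 genes varied by more than counting error at an adjusted p under 0.05, against 70.0% of the 23317 genes tested and 79.2% of the 8944 genes with at least 10 CPM. The adjusted p in the chi-square test of homogeneity with Benjamini-Hochberg adjustment ran from 1.6e-17 for Aldoa to 0.020 for Tpi1. Most of the background passed too, and well-counted genes pass at small differences. These shares were taken with TMM-scaled sizes and all 3 libraries, and those under the settings below are not given here. The counts under those settings are thus not read as a trait of the 10 genes. With plain library totals 7 of the 10 passed, and Pgk1 (adjusted p = 0.13), Pkm (0.15) and Ldha (0.14) did not. Leaving out library 1 left 8, without Tpi1 (adjusted p = 0.13) and Pgk1 (0.77). Leaving out library 2 left 8, without Pfkl (0.92) and Tpi1 (0.42), and leaving out library 3 left 8, without Pgam1 (0.92) and Eno1 (0.070).

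The size of the differences depended on the scaling. With library totals, the median coefficient of variation over the 10 genes was 8.81%, against 13.7% over the 8944 genes with at least 10 CPM, and the median ratio of the highest to the lowest library was 1.19 against 1.30. With TMM-scaled sizes, on which the test was run, the 10 genes lay at the background, with a median coefficient of 12.8% against 12.8% and a median ratio of 1.28 against 1.28. The biological coefficient of variation that edgeR assigned to each gene ran from 0.143 for Pkm to 0.323 for Hk2, beside a common value of 0.266 over 16614 genes. That common value covers genes of all levels. The trend that edgeR fitted for genes of like level was 0.160 for Pkm and 0.297 for Hk2. Hk2 lay above its trend value and the other genes of the 10 below theirs. Hk2 was the widest with library totals (2.16-fold) and with TMM-scaled sizes (2.23-fold), whereas the narrowest was Pkm with totals (1.05-fold) and Pgk1 with TMM-scaled sizes (1.17-fold, against 1.183-fold for Pkm). By library totals, 6 genes were highest in library 1 (Hk1, Hk2, Aldoa, Pgk1, Pkm and Ldha), 3 in library 2 (Pfkl, Pgam1 and Eno1) and 1 in library 3 (Tpi1). TMM scaling moved all genes together, by 0.07 and 0.02 upwards in libraries 1 and 2 and by -0.10 in library 3 on the log2 scale. Tpi1 was then also highest in library 1, and library 3 was lowest for 8 of the 10 genes. The same shares over all genes are not given here, so these counts are not read as a trait of the 10 genes. Library 3 also differed as a whole, with 30433 genes that had a count, against 24939 in library 1 and 26207 in library 2. Nuclear protein-coding genes took 63.0% of its counts, against 56.9% and 58.8%.

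Sequence shared with other genes differed among the 10. Of the 50-base words of the longest coding transcript, 72.2% in Eno1, 68.0% in Pgk1, 41.5% in Pgam1 and 34.4% in Pkm also occurred in transcripts of another gene, against 16.6% in Ldha, 13.5% in Aldoa, 7.51% in Tpi1, 2.55% in Hk1, 0.0543% in Pfkl and 0 in Hk2. The counts listed at copies were large for the first of these. Eno1b, a copy annotated as protein-coding of Eno1 whose coding sequence differed at 8 of 1302 bases, had 2314, 2515 and 1858 counts, or 72.9% ± 3.26 of those of Eno1. Over its 6 copies with a count the figure was 129% ± 7.50. Pgk1-rs7, with 654, 591 and 535 counts, had 74.8% ± 2.98 of those of Pgk1, and no base differed over the 1250 coding bases aligned. Gm5537 did not differ from Pgk1 at any of 1251 coding bases and had 418, 365 and 314 counts. Pgk1-rs7 and Gm5537 together had 121% ± 6.24 of the counts of Pgk1.

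For Pgam1, the pseudogene Pgam1-ps2, with 0 differences over 762 coding bases, had 194, 241 and 129 counts, and 3 copies together had 51.3% ± 9.76. For Pkm, Gm6560, with 24 differences over 1591 coding bases, had 424, 420 and 370 counts, and 4 copies had 16.5% ± 0.138. Ldha-ps2, with 51 differences over 993 aligned bases, had 90, 172 and 105 counts, and 11 copies of Ldha had 14.2% ± 5.81 of its counts. Copies of Aldoa, led by Aldoart1 (56, 21 and 16 counts, 77 differences over 1254 bases), had 3.15% ± 1.77. Tpi-rs11 had 63, 2 and 22 counts, 8.13% ± 8.39 of those of Tpi1. Hk1, Hk2 and Pfkl had no counted copy. Pfkl shared only 2 words with other genes, and Ap4e1 (329, 362 and 389 counts), an unrelated gene, was 1 of many tied at these. The sources used here do not say how reads that match several genes were counted. The levels of Eno1, Pgk1 and Pgam1, and to a lesser degree Pkm, are therefore uncertain, while those of Hk1, Hk2 and Pfkl rest on sequence nearly all their own.

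**Figure D4:**
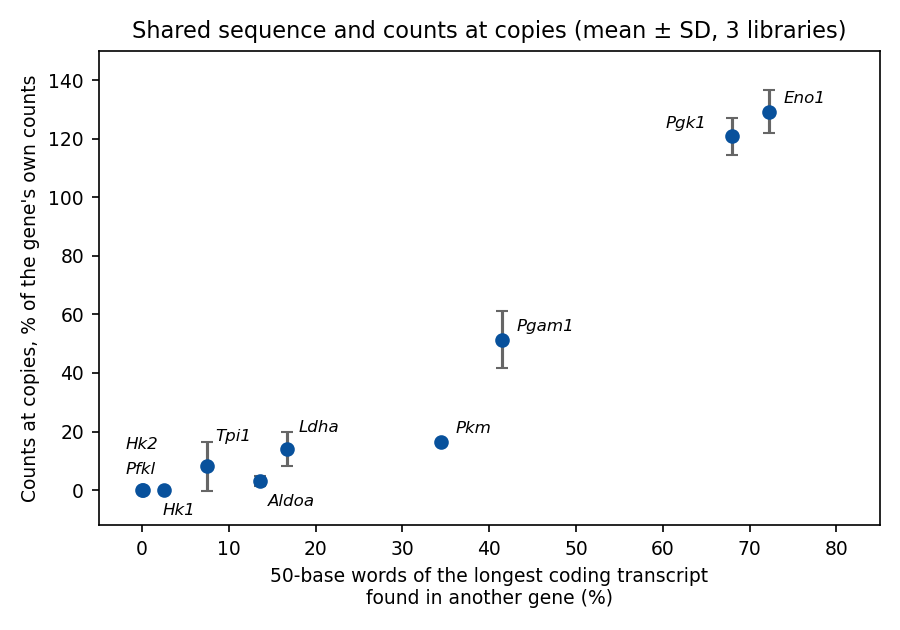
For each of the 10 genes, the percentage of 50-base words of its longest coding transcript found in another gene (horizontal) and the summed counts of its copies as a percentage of its own counts (vertical, mean ± SD of 3 libraries). Eno1 and Pgk1 lie above 100% on the vertical axis, and Hk2, Pfkl and Hk1 lie at 0.

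Some exons overlapped those of neighbouring genes. Exons of Hk1 overlapped the antisense gene Hk1os by 157 bases (9, 22 and 17 counts), those of Tpi1 overlapped Spsb2 on the other strand by 34 bases and those of Aldoa overlapped Fam57b by 25 bases. Without the counting's use of strand, reads in these stretches cannot be told apart. Pkm shared 767 exonic bases, 15.3% of its exons, with a gene model on its own strand, Gm49759, which was not analysed here.

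The other genes of glucose metabolism were described by lists, each with its median level per kilobase. Regulation of phosphofructokinase by fructose 2,6-bisphosphate, which the Pfkfb enzymes make, was represented by 5 genes, all above 1 CPM. Their median was 1.495 ± 0.162 CPM per kilobase. Pfkfb3, the form with the highest kinase activity, led at 5.90 ± 0.990, with 36.7, 45.5 and 51.6 CPM in libraries 1, 2 and 3. Pfkfb4 followed at 1.77, Tigar, a bisphosphatase that opposes it, at 1.53, and Pfkfb1 was lowest at 0.321. Of the 5 genes, 3 varied beyond counting error.

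Among 14 carriers of sugars and lactate, 10 reached 1 CPM and 4 reached 10 CPM, with a median of 1.08 ± 0.0613 CPM per kilobase. Bsg, the chaperone of the lactate carriers, led at 54.1 ± 12.1, the glucose carrier Slc2a1 followed at 9.52 ± 1.85 and the lactate carrier Slc16a1 at 6.26 ± 1.31. Bsg was highest in library 1 (123 CPM against 86.2 and 84.6), whereas Slc2a1 was lowest there (26.0 CPM against 35.7 and 38.3). Slc2a4, the insulin-regulated glucose carrier of muscle, had 1, 0 and 3 counts. Of 13 carriers tested, 10 varied beyond counting error.

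The fate of pyruvate was read from 14 genes of its entry into mitochondria, with a median of 4.16 ± 0.231 CPM per kilobase. Pdha1, the catalytic subunit of pyruvate dehydrogenase, had 14.1 ± 0.557, Dld 8.83 ± 3.06 and Pdk1, a kinase that inhibits pyruvate dehydrogenase and is a known HIF target, 7.72 ± 1.01, while Pdk4 was lowest at 1.28. Here 6 of 14 varied beyond counting error. Dld was low in library 1, at 20.3 CPM, and had 34.8 and 42.5 CPM in libraries 2 and 3. In the tricarboxylic acid cycle 16 of 16 genes exceeded 10 CPM, with a median of 10.2 ± 0.443 CPM per kilobase, and 9 of 16 varied beyond counting error. Sdha led at 24.6, followed by Ogdh at 22.8 and Mdh2 at 15.99, and Suclg2 was lowest at 3.89.

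The median of the 10 glycolytic genes exceeded that of the cycle by 0.58 ± 0.12 on the scale log2(CPM per kilobase + 0.1), a 1.499-fold difference with the same sign in 3 of 3 libraries. This difference depended on which members were used and on the length used. It was 0.0086 ± 0.14 with the longest coding transcript. With only the 6 members that shared under 10% of all their words (Hk1, Hk2, Pfkl, Aldoa, Tpi1 and Ldha) it was -0.47 ± 0.15. The members left out held places 3 to 6 of the 10 in level per kilobase, so the median had to fall. Genes of the cycle were not filtered in this way, so the part of shared sequence was not tested.

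The pentose phosphate pathway, which branches off after hexokinase, had 8 of 8 genes above 10 CPM and a median of 6.06 ± 0.612 CPM per kilobase, with Taldo1 at 25.1, Tkt at 9.34, G6pdx at 7.24 and Rpia lowest at 3.18. Of these, 6 of 8 varied beyond counting error. Gluconeogenesis, the reverse route of liver and kidney, had 3 of 7 genes above 1 CPM and a median of 0.123 CPM per kilobase. G6pc3, the ubiquitous glucose phosphatase, led at 3.18, Pck2 had 1.74 and Pcx 0.765, and the liver gene Pck1 had 0, 0 and 3 counts. All 4 genes tested varied beyond counting error. Of the 21 other genes of the glycolytic steps, 13 reached 1 CPM, 5 reached 10 CPM, and 13 of 17 tested varied beyond counting error, with a median of 0.603 ± 0.176 CPM per kilobase.

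Regulators of the pathway were read from 8 genes, 7 of them above 10 CPM, with a median of 11.99 ± 0.371 CPM per kilobase, and 6 of 8 varied beyond counting error. Epas1, which encodes the HIF subunit known from lung endothelium, stood at 81.6 ± 28.7, with 612, 291 and 466 CPM in libraries 1, 2 and 3. The endothelial, macrophage, alveolar and airway marker sums all had this library order (1, 3, 2), and their part in it was not tested. Myc, a transcription factor known to raise glycolytic genes, had 17.5 ± 2.51, the oxygen sensor Egln2 15.8 ± 2.99, and Egln3, an oxygen sensor that HIF itself induces, was lowest at 1.41 ± 0.394.

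**Figure D5:**
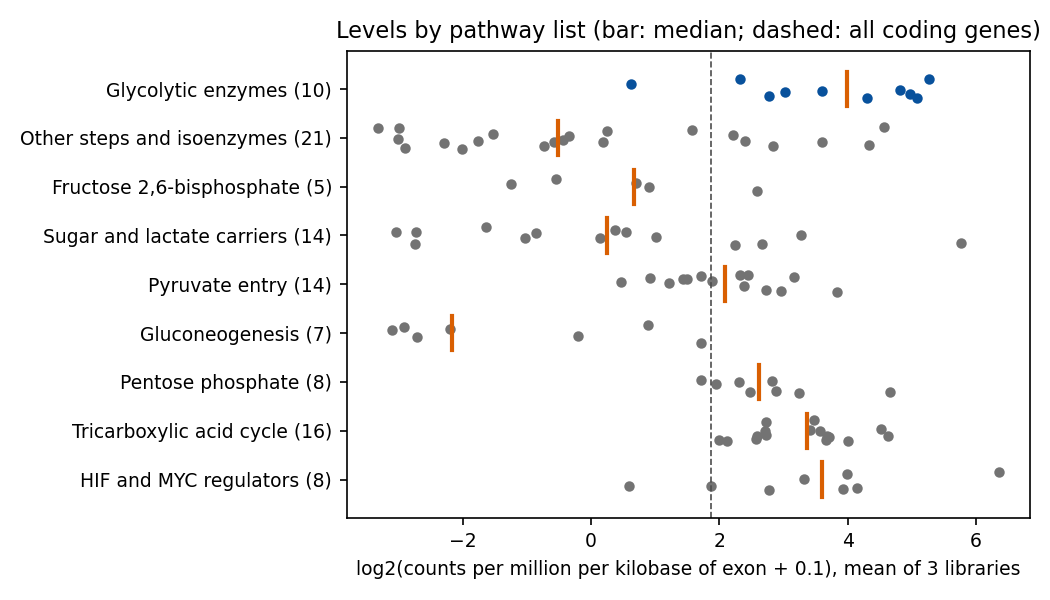
Level of each gene as log2(CPM per kilobase of exon + 0.1), mean of 3 libraries, by pathway list with the number of genes in brackets. Orange bars are medians of the lists, and the dashed line is the median of the 13057 nuclear protein-coding genes with at least 1 CPM; the 10 glycolytic genes have a median of 15.8 CPM per kilobase, which is 7.38 over the 6 that share under 10% of their words with other genes.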

How the data were processed

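Raw read counts were used as the authors deposited them, as whole numbers without normalization, for 48709 mouse Ensembl genes in 3 libraries of total RNA (stranded SMARTer kit, per the labels' protocols). Trimmomatic 0.38, STAR 2.6.1d, featureCounts 1.6.3 and DESeq2 1.18.1 are named in the submitters' processing notes, without order or settings, and the sources used here do not give the use of strand or of reads that match several genes. The notes name the human builds hg38 and GRCh38; the gene IDs are mouse, and 88.4% of 48349 IDs shared with GENCODE M21 had its GRCm38 coordinates. Coordinates of genes are printed as the table gives them. Columns named as controls 1 to 3 were assigned to WT 1 to 3 by number.

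CPM used library totals, and lengths were unions of exons in GENCODE M21. The 10 genes, the lists (170 symbols, all matched) and the 12 pairs were chosen with earlier results of these data known. Variation was tested per gene by a chi-square test of homogeneity over 3 libraries with TMM-scaled sizes (edgeR 4.0.16, R 4.3.3), for 23317 genes with a sum of at least 10 counts, and p was adjusted by the Benjamini-Hochberg method; it was checked on simulated data. Genes with fewer counts were not tested. Values of some single genes of the lists are not reported here, though sums and medians include them. Intervals are SDs over libraries, and counting floors cover counting error only. Ratios had 1 count added to each gene, and log2 levels 0.1. Named were the 10 genes, the genes of the pairs, Gpi1 and Gapdh, the 3 highest and the lowest gene of each list, and for each of the 10 genes the counted gene sharing the most 50-base words with it (for Pfkl, the first of those tied). Other genes named were chosen after their values were seen. Copies were pseudogenes sharing a word with the longest coding transcript, Eno1b and Aldoart1. Alternatives were library totals, DESeq2 1.42.0 size factors, protein-coding totals, no minimum count, other lengths and pseudocounts, fewer members, and each library left out. Protein-coding totals for the variation, and the limit on words of the longest coding transcript, were added after seeing the data.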

Additional observations from a re-analysis of the deposited data

How the results depend on the processing

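The median level of the 10 glycolytic genes, 15.8 CPM per kilobase, stayed within 1 SD under TMM sizes, DESeq2 size factors and protein-coding totals, and between 15.5 and 16.1 with a library left out. It was 20.1 with the longest coding transcript as length, 7.38 over the 6 genes sharing under 10% of their words, and 5.79 over the 4 genes (Hk1, Hk2, Pfkl and Tpi1) sharing under 10% of the words of their longest coding transcript, a limit chosen after seeing the data. The difference from the tricarboxylic acid cycle, 0.58 on the log2 scale, lay between 0.52 and 0.65 with a library left out, was 0.41 with means over genes and 0.0086 with the longest coding transcript, and was reversed at -0.47 and -0.83 over those 6 and 4 genes. These alternatives use fewer genes or other lengths by construction, and the genes of the cycle were not filtered for shared words. The number of genes varying beyond counting error was 7 with library totals, 8 with any library left out, and 10 under the other settings. The share over all genes, 70.0%, is given only for TMM-scaled sizes with all 3 libraries. All 12 isoenzyme pairs had a common sign under every alternative tried. Of 72 alternative ratios, 56 stayed within 1 SD and 16 moved, with 0 reversed. Leaving a library out cannot remove a common sign or move these means by 1 SD, so the moves came from other lengths or pseudocounts. All 60 alternative levels of single genes stayed within 1 SD, which the choice of alternatives made nearly certain. They were scalings set to the same mean library size or means with a library left out, and none used another length. Depth limits Pklr, Pgk2, Pck1 and Slc2a4, which had at most 6 counts in all.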
